A study of Arabidopsis thaliana with 9 samples.

Results

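Nuclear genes whose deposited locus spans 7 kb or more were described in Arabidopsis thaliana seedlings with altered levels of SRT1, a nuclear sirtuin. Members were the entries of the 4 deposited gene lists with a locus on chromosomes 1 to 5, typed without spaces, and an end minus start of at least 7000 bases. There were 94 such genes, in 104 entries, among 2507 listed genes and 2406 listed nuclear genes typed without spaces. The rule also leaves out 4 genes by symbol, of which 2 met the limit. The rule does not use the measured levels beyond a gene being listed, but earlier results of these data were known when the members were chosen.

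RNA was taken from 14-day-old seedlings (leaf, stem and root) grown in MS medium, with 3 libraries in each of 3 groups. The groups were a line overexpressing SRT1 (OX, line OX-SRT1-1), a line with an RNA interference construct against SRT1 (RNAi, line RNAi-1) and wild type of the Columbia background (Col). The deposited tables head their columns ox5, r5 and col, and the sources used here do not say how the 5 relates to the line numbers. Each transgenic group is 1 line, and the promoters of the constructs are not given in the sources used here. The tables give 1 FPKM value per group and gene (fragments scaled by transcript length and by mapped fragments), so values have no SD, depth is unknown, and each call is that of the authors' deposited tables. Listed entries differ at least 2.00-fold at a deposited q-value of at most 0.0496. A gene that is not listed is not thereby shown to be unchanged. Whether the replicates were planted separately is not given in the sources used here.

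Sirtuins remove acetyl groups from histones and other proteins at the cost of NAD, and SRT1 is found in the nucleus. Plant genes are mostly compact, and those with long loci tend to hold many exons and to encode large proteins. Such proteins include cytoskeletal motors, chromosome-organising ATPases, helicases, chromatin remodellers and callose synthases, which deposit a glucan in cell walls.

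SRT1 itself (AT5G55760, chromosome 5, 22567222 to 22570963 in TAIR10 coordinates) was 6.05 FPKM in OX and 1.75 FPKM in wild type, 3.46-fold higher in OX. The sheet titled lower in RNAi listed SRT1 at 2.37 FPKM under the RNAi label and 0.419 FPKM under the wild type label, which goes against the RNAi label. The titles and labels of the RNAi sheets also conflict with each other. The sheet titled lower in RNAi has the RNAi label over its first and higher column. The sheet titled higher in RNAi has the wild type label over its first and lower column. Over the 494 nuclear genes other than SRT1 present in both comparisons, the second column of the RNAi sheets lay at a median log2 distance of 0.08 from the wild type column of the OX sheets, with all 494 within 0.1 of that median, while the first columns lay within 0.1 of their own median for 86. SRT1 broke this match, with its second-column values a log2 distance of 2.06 apart, and was the only one of the 495 genes in both comparisons to lie outside. The matched columns and the SRT1 values thus do not give 1 reading of the RNAi sheets. Levels in the RNAi sheets are given as the first column against the second, with the printed labels named. By the printed labels every RNAi entry would be higher in RNAi, and by the sheet titles the direction would be the opposite of the one given here.

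In OX, 86 of the 90 listed long-locus genes were higher than in wild type and 4 were lower. That is 95.6% higher, against a background of 60.8% higher among all 1865 listed nuclear entries. Folds of the 86 ran between 2.01 and 5.605 with a median of 2.37, beside a median of 2.42 over all 1134 higher nuclear entries. Nearly all members thus lay on the higher side, with folds in the range of the other listed genes. Their levels were moderate, with a median of 4.04 FPKM in OX and 1.84 FPKM in wild type, beside medians of 3.48 FPKM in OX and 1.37 FPKM in wild type over all higher nuclear entries. The deposited p-value was the smallest that occurs, 5e-05, for 84 of the 90 (93.3%), so it does not rank them. The same value was given for 1378 of all 1865 listed nuclear entries in OX (73.9%).

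In the RNAi sheets 14 members were listed, of which 12 had the higher level in the first column and 2 in the second. That is 85.7% higher, against a background of 36.4% among 1036 listed nuclear entries. Folds of the 12 ran between 2.00 and 3.35 with a median of 2.11, beside a median of 2.30 over all 377 higher nuclear entries.

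The share of higher entries followed locus span over the whole range. In OX, 11.2% of 294 entries under 1000 bases were higher, 40.0% of 467 between 1000 and 2000, 70.0% of 404 between 2000 and 3000, and 87.3% of 458 between 3000 and 5000. It was 95.3% of 150 entries between 5000 and 7000 bases, 94.4% of 72 between 7000 and 10000, and 100% of 18 at 10000 or more. The shares on either side of the 7000 base limit were thus close to each other. In the RNAi sheets the share was 17.5% of 229 entries under 1000 bases, 57.1% of 177 between 3000 and 5000, 82.1% of 28 between 5000 and 7000 and 84.6% of 13 between 7000 and 10000. From the shortest to the longest of these span classes, entries higher in OX had median folds of 2.87, 2.46, 2.42, 2.36, 2.43, 2.47 and 2.19.

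**Figure D1:**
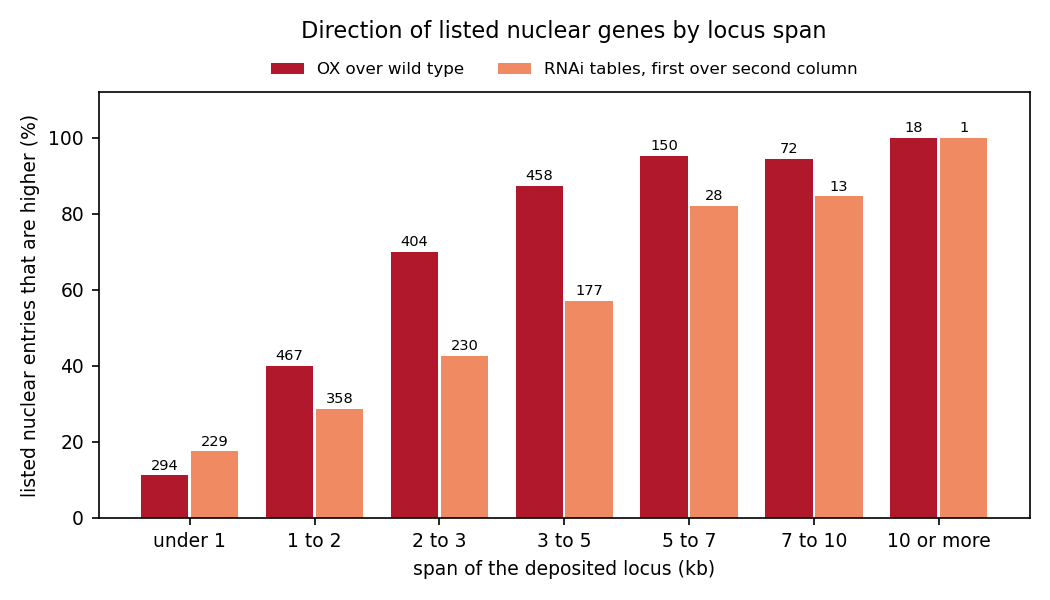
Share of listed nuclear entries that were higher (percent, vertical axis) by span of the deposited locus (kb, horizontal axis), in OX over wild type and in the first over the second column of the RNAi sheets; numbers above bars count entries. The OX share was 11.2% under 1 kb and 94.4% between 7 and 10 kb, and the last RNAi bar holds 1 entry.

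Just outside the limit were SNL1 at 6983 bases, STIPL2 at 6958, UVH3 at 6952 and AT1G69070 at 6922, which were 2.24-fold, 2.59-fold, 2.44-fold and 2.44-fold higher in OX. Just inside were PI4KB2 at 7024, AT1G14780 at 7043, AT3G48830 at 7065 and AT3G14172 at 7067 bases. PI4KB2, AT3G48830 and AT3G14172 were 2.32-fold, 2.39-fold and 2.28-fold higher in OX, and AT1G14780 was 2.62-fold lower.

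A locus in these tables can hold more than 1 gene. The length of each gene itself was looked up by its identifier in RefSeq's annotation of TAIR10.1, where all 94 members were found. The gene itself was at least 7000 bases long for 64 members, shorter for 30, and under 50% of the locus span for 15. All 64 long genes were higher in OX, and the 4 members lower in OX were all among the 30. Taking every listed nuclear entry by its own annotated length, whatever its locus, 60 of 61 entries between 7000 and 10000 bases and 16 of 16 at 10000 or more were higher in OX. In 5 cases a pair of members shared 1 locus.

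**Figure D2:**
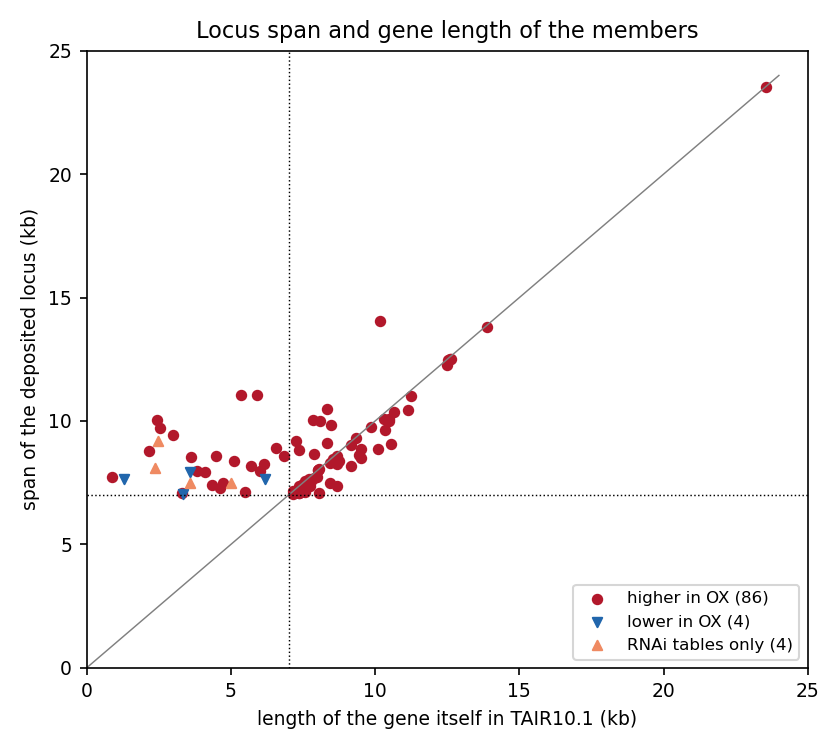
Span of the deposited locus (kb, vertical axis) against the annotated length of the gene itself (kb, horizontal axis) for the 94 members, with the line of equality and dotted lines at 7 kb. The 64 genes right of the vertical line were all higher in OX, and the 4 members lower in OX lie left of it.

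The members shared gene structure that the choice did not use directly, though it goes with length. Members had a median of 20 exons in the transcript with the longest coding sequence, against 3 over all 2400 listed nuclear genes found in the annotation. The median coding length was 3462 bases for the 89 protein-coding members, against 1150.5 bases over 2268 listed genes. By exon number the shares ran the same way. In OX, 17.1% of 461 listed entries with 1 exon were higher, against 97.4% of 386 entries with 10 to 19 exons, all 78 with 20 to 29 and all 19 with 30 or more. In the RNAi sheets 12.4% of 306 entries with 1 exon were higher, against 77.1% of 109 with 10 to 19 and all 6 with 20 to 29. By coding length the RNAi share was 46.4% of 69 entries between 2000 and 3000 bases, 60% of 10 between 3000 and 4000 and 50% of 2 at 4000 or more. Exon number and length go together in genes, and their parts were not tested. The structures ranged widely: AT4G17140, a pleckstrin homology domain protein gene, had 65 exons and 12660 coding bases, while AT2G42270, which encodes a helicase of the U5 spliceosomal particle, had 6519 coding bases in 2 exons.

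The 94 members, of which 89 are annotated as protein-coding, were put in classes by role. Myosins and kinesins were the largest class that was listed in OX, with 13 members, followed by DNA repair and chromosome structure with 12 and RNA processing and decay with 11. The other and uncharacterised proteins held 9, and the chromatin proteins with the nuclear lamina and the other metabolic enzymes 8 each. Of the 9 uncharacterised proteins 6 were higher and 3 lower, and in the other classes just named every listed member was higher. The plot of ratios by class shows the same direction in every class but the uncharacterised proteins and the pseudogenes.

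**Figure D3:**
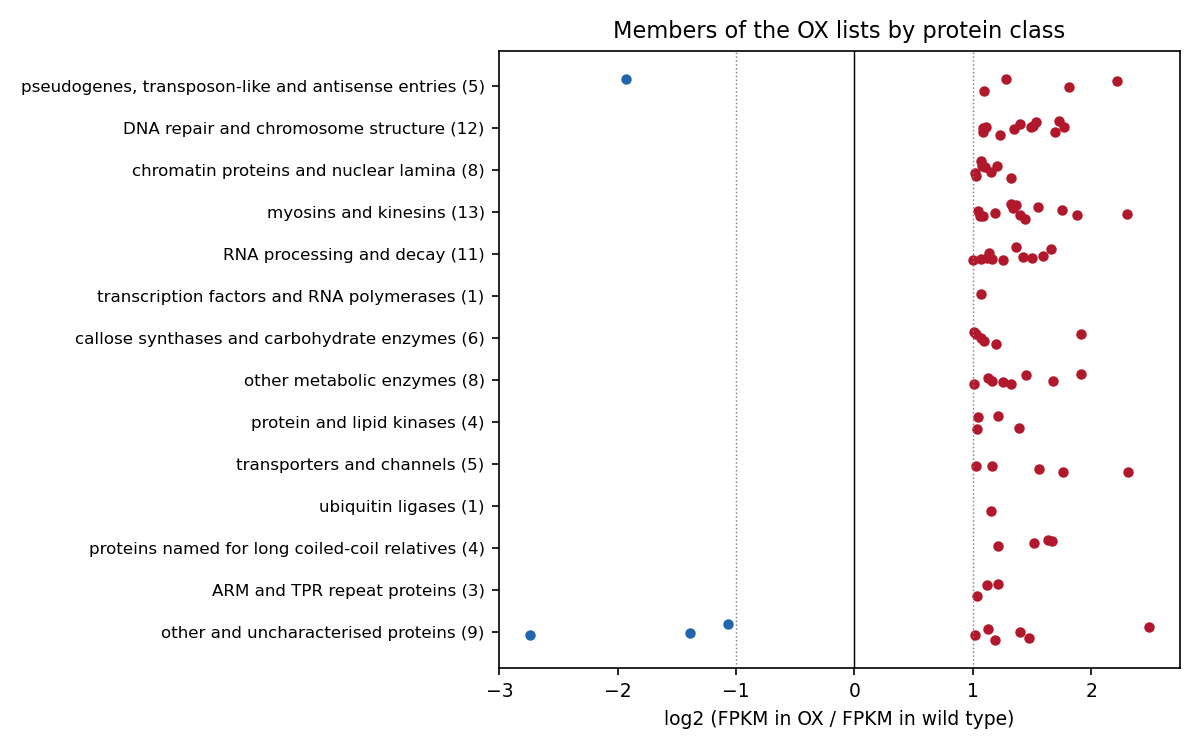
The log2 ratio of FPKM in OX over wild type (horizontal axis) for the 90 members of the OX lists, 1 point per gene, by protein class with the number of genes in brackets; dotted lines mark the 2-fold limit of the lists. The 86 higher members lie right of the limit in every class, and the 4 lower members belong to the uncharacterised proteins and the pseudogenes.

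Myosins move cargo along actin filaments. The 6 myosin members were 2.06-fold to 4.94-fold higher in OX, with levels between 0.588 and 4.93 FPKM in OX and between 0.175 and 1.95 FPKM in wild type. XI-J stood at 1.25 FPKM in OX and 0.253 FPKM in wild type, 4.94-fold higher. XI-F was 0.588 FPKM in OX and 0.175 FPKM in wild type, 3.36-fold higher. XI-H, whose locus of 14042 bases is among the longest, was 4.93 FPKM in OX and 1.95 FPKM in wild type, 2.53-fold higher. XI-J and XI-F, the 2 with the largest folds, were also at low levels in both groups. XI-F shares its locus with AT2G31902, an annotated antisense RNA, which was 0.963 FPKM in OX and 0.207 FPKM in wild type, and the sources used here do not state that strand was used in counting, so reads of the pair cannot be told apart. Of all 17 class VIII and XI myosin genes in the reference, of any length, 7 were listed as higher in OX and 0 as lower, beside the 60.8% higher of all listed entries and the 95.3% and 94.4% of entries spanning 5000 to 7000 and 7000 to 10000 bases. The one below the span limit was VIII-B, at 2.01 FPKM in OX and 0.461 FPKM in wild type, 4.36-fold higher. What share of all reference genes was listed is not given here, for myosins or for the families below.

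Kinesins are the motors of microtubules. The 7 kinesin members were 2.08-fold to 3.68-fold higher in OX. AT2G22610, a kinesin with a di-glucose binding domain, was 1.72 FPKM in OX and 0.467 FPKM in wild type, 3.68-fold higher. POK1 and POK2 orient the phragmoplast, the structure that builds the new wall in cell division. POK2 was 1.30 FPKM in OX and 0.444 FPKM in wild type, 2.92-fold higher, and POK1 was 1.11 FPKM in OX and 0.410 FPKM in wild type, 2.72-fold higher. AT3G12020 was the most abundant of them, at 17.0 FPKM in OX and 6.44 FPKM in wild type, 2.63-fold higher. Of 73 kinesin genes in the reference, 21 were listed as higher in OX and 0 as lower, with a median fold of 2.59, and 14 of the 21 span less than 7000 bases. Those 14 span 3328 to 6777 bases, where 87.3% of all listed entries between 3000 and 5000 and 95.3% of those between 5000 and 7000 bases were higher. They include KCBP, a calmodulin-binding kinesin, at 6.52 FPKM in OX and 2.39 FPKM in wild type, and NACK1, which acts in cytokinesis, at 3.20 FPKM in OX and 1.45 FPKM in wild type. In the RNAi sheets 0 kinesin genes were listed. Of all nuclear entries listed in OX, 26.5% were also listed in the RNAi sheets. How large a share of all reference genes was listed is not given here.

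Among DNA repair and chromosome genes, 6 encode SMC proteins, chromosome-organising ATPases, or the related RAD50. RAD50, an SMC-like subunit of the complex that senses double-strand breaks, was 3.42 FPKM in OX and 1.03 FPKM in wild type, 3.30-fold higher. SMC4 (AT5G48600), of condensin, was 2.02 FPKM in OX and 0.626 FPKM in wild type, 3.23-fold higher. The cohesin subunit genes TTN8 and SMC3 (AT2G27170) were 2.85-fold and 2.12-fold higher, with TTN8 at 7.34 FPKM in OX and 2.58 FPKM in wild type. SMC6A and SMC6B, of the complex that acts in recombination repair, were 2.81-fold and 2.63-fold higher. They are near copies of each other, and how their shared reads were divided is uncertain. Of the 9 genes for SMC proteins and RAD50 in the reference, a family added after the values were seen, 7 were listed as higher in OX and 0 as lower, at spans where the shares of all listed entries were 95.3% and 94.4% higher. The seventh, below the span limit, was SMC2-1 at 2.47 FPKM in OX and 0.989 FPKM in wild type. None of the 9 was listed in the RNAi sheets, where 26.5% of all nuclear entries listed in OX were also listed. The listed share of all reference genes is not given here.

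The other members of this class were helicases, a ligase, a polymerase and proteins named for repair or the centromere. AT1G20720, a helicase like yeast RAD3, had the largest fold of the class, 3.40, at low levels of 0.563 FPKM in OX and 0.165 FPKM in wild type. AtLIG6, a DNA ligase, was 4.10 FPKM in OX and 1.42 FPKM in wild type, 2.89-fold higher. REV1, a polymerase that copies past lesions, was the most abundant of the class at 11.5 FPKM in OX and 4.53 FPKM in wild type, 2.54-fold higher. RECQL4B, a RecQ helicase, and AT4G14970, named for Fanconi anemia protein D2, were 2.16-fold and 2.12-fold higher, both below 1 FPKM in either group. AT5G55820, annotated as an inner centromere protein with an ARK-binding region, shares a locus of 10051 bases with NMNAT and was 2.35-fold higher. The replication-related helicase gene MCM8 was listed in the RNAi sheets alone, at 1.12 FPKM in the first column (labelled RNAi) and 0.524 FPKM in the second (labelled wild type), with a deposited q-value of 0.0421.

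**Figure D4:**
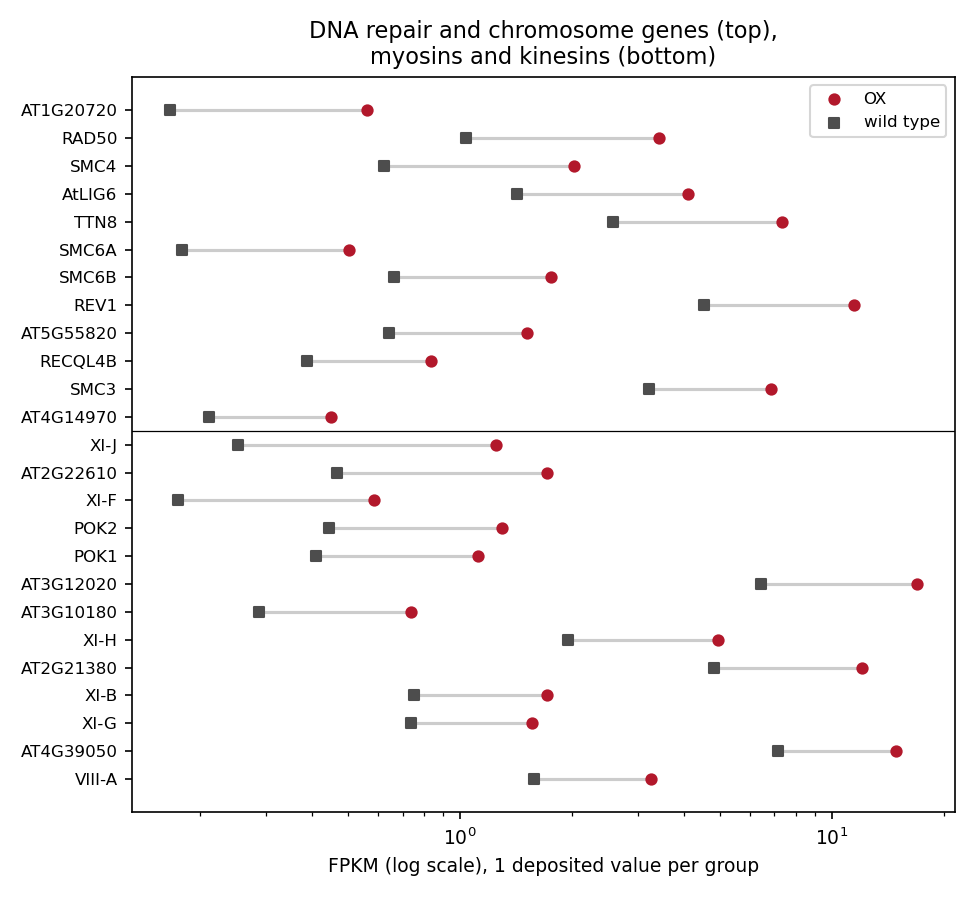
FPKM on a log axis in OX (circles) and wild type (squares) for the 12 DNA repair and chromosome genes (top) and the 13 myosin and kinesin genes (bottom) of the OX lists; each symbol is 1 deposited value per group. Every gene is higher in OX, from the 2.06-fold of VIII-A to the 4.94-fold of XI-J, over levels in wild type between 0.165 and 7.15 FPKM.

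RNA processing and decay members were 2.01-fold to 3.16-fold higher in OX. PRP40A and PRP40B, which encode splicing factors related to yeast Prp40, were 3.16-fold and 2.83-fold higher, PRP40A at 5.96 FPKM in OX and 1.89 FPKM in wild type. MEE29, a helicase gene, was 3.02-fold higher, at 1.45 FPKM in OX and 0.481 FPKM in wild type. AT2G39340 (SAC3A), named for yeast Sac3, was 13.2 FPKM in OX and 4.94 FPKM in wild type, 2.68-fold higher. DCL1, the dicer that makes microRNAs, was 7.31 FPKM in OX and 3.35 FPKM in wild type, 2.18-fold higher, and DCL2, a dicer that makes small interfering RNAs, was 4.09 FPKM in OX and 1.86 FPKM in wild type, 2.197-fold higher. These are 2 of the 4 dicer-like genes in the reference, and DCL3 and DCL4 were not listed. The listed share of all reference genes is not given here. The loci of DCL1 and DCL2 span 10008 and 10471 bases, and all 18 listed entries at 10000 or more were higher in OX. AT1G58060, an RNA helicase with a locus of 12527 bases, was 2.101-fold higher, and XRN2, a 5′ to 3′ exoribonuclease, had the smallest fold of all members higher in OX at 2.01.

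Chromatin members had small folds, between 2.02 and 2.502. ATX2, a methyltransferase of histone H3, was 10.3 FPKM in OX and 4.63 FPKM in wild type, 2.23-fold higher. AT2G40770, with RING, PHD and SNF2 helicase domains, was 3.24 FPKM in OX and 1.30 FPKM in wild type, 2.502-fold higher. AT1G63490, a jumonji domain protein gene, was 2.30-fold higher and AT5G08230, a PWWP domain protein gene annotated as like HUA2, 2.15-fold. CHR5, a chromatin remodeller with a locus of 12284 bases, was 2.095-fold higher, and PIE1, the remodeller that places the histone variant H2A.Z, was 2.11-fold higher. SNL5, a SIN3-like co-repressor, and CRWN4, of the nuclear lamina, were 2.02-fold and 2.03-fold higher. Of 37 SNF2 family genes in the reference 4 were listed as higher in OX and 0 as lower, and of 39 SET domain genes 5 and 0. Of all listed nuclear entries 60.8% were higher in OX. By span it was 87.3% between 3000 and 5000 bases, 95.3% between 5000 and 7000 and 94.4% between 7000 and 10000. The share of all reference genes that were listed is not given here.

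Callose synthases build callose at cell plates, plasmodesmata and wound sites. CALS6 was 2.01 FPKM in OX and 0.942 FPKM in wild type, 2.13-fold higher, and CALS8 was 1.17 FPKM in OX and 0.580 FPKM in wild type, 2.01-fold higher. They were 2 of the 12 callose synthase genes in the reference, with loci of 10454 and 9986 bases. At those spans 94.4% of listed entries between 7000 and 10000 bases and all 18 at 10000 or more were higher in OX. The listed share of all reference genes is not given here. Among starch enzymes, GWD2, annotated as a phosphoglucan, water dikinase, was 1.64 FPKM in OX and 0.438 FPKM in wild type, 3.76-fold higher, and PU1, a debranching enzyme, was 2.30-fold higher. CYL1, an N-acetylglucosaminidase gene, was 2.04-fold higher, and AT2G22620, a rhamnogalacturonate lyase gene, was 2.101-fold higher at 0.643 FPKM in OX and 0.306 FPKM in wild type, with the largest deposited q-value of the OX members, 0.0319.

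The other metabolic enzymes were of several pathways. NUDT22, a nudix hydrolase, was 2.19 FPKM in OX and 0.582 FPKM in wild type, 3.77-fold higher. AT1G24880, which belongs to a family of near-identical deacetylase genes of lipid A synthesis, was 3.19-fold higher, and how reads were divided between the copies is uncertain. LUP1, lupeol synthase, was 7.92 FPKM in OX and 2.91 FPKM in wild type, 2.72-fold higher. PHYLLO, of phylloquinone synthesis, was 9.96 FPKM in OX and 4.16 FPKM in wild type, and ACC2, an acetyl-CoA carboxylase with a locus of 12528 bases, was 1.15 FPKM in OX and 0.527 FPKM in wild type. NMNAT (AT5G55810), whose enzyme joins a mononucleotide precursor to adenylate in NAD synthesis, was 3.69 FPKM in OX and 1.65 FPKM in wild type, 2.24-fold higher, in a gene of 2434 bases within a locus of 10051.

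Kinase and transporter genes completed the named classes. GCN2, the kinase of translation factor eIF2 in amino acid shortage, was 5.33 FPKM in OX and 2.03 FPKM in wild type, 2.62-fold higher. SERK2, a co-receptor kinase, was 13.8 FPKM in OX and 6.70 FPKM in wild type, 2.05-fold higher, and AT1G53440, a leucine-rich repeat kinase, was 2.06-fold higher. PI4KB2, a phosphatidylinositol 4-kinase, was 2.57 FPKM in OX and 1.11 FPKM in wild type. ABCC11, an ABC transporter, was 0.799 FPKM in OX and 0.161 FPKM in wild type, 4.97-fold higher, the second largest fold among members higher in OX. AT5G02940, a POLLUX-like ion channel gene, had the highest level of any member in OX, 31.95 FPKM against 9.44 FPKM in wild type. AT5G53010, a calcium pump gene, and SCY2, a chloroplast SecY translocase gene, were 2.95-fold and 2.24-fold higher.

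The largest fold of all members higher in OX was that of AT5G40450 (chromosome 5, 16184650 to 16195651), annotated only as an A-kinase anchor-like protein, at 20.8 FPKM in OX and 3.70 FPKM in wild type, 5.605-fold. The longest member was AT4G17140 (chromosome 4, 9613330 to 9636873), of 23544 bases, which was 3.65 FPKM in OX and 1.80 FPKM in wild type, 2.03-fold higher. AT4G30990, an ARM repeat protein gene of 13823 bases, was 2.18-fold higher. The 4 genes named for long coiled-coil relatives, such as myosin heavy chain, were 2.32-fold to 3.18-fold higher. Of these, AT2G32240 was 10.5 FPKM in OX and 3.31 FPKM in wild type. MEE13 was 4.83 FPKM in OX and 1.56 FPKM in wild type. RPOT1, an organelle RNA polymerase gene, and AT5G63970 (RGLG3), a ubiquitin ligase gene, were 2.103-fold and 2.23-fold higher. SADHU2-1, a non-coding retrotransposon of 891 bases within a locus of 7721, was 7.52 FPKM in OX and 3.09 FPKM in wild type, 2.43-fold higher.

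The 4 members lower in OX all had genes shorter than 7000 bases. AT2G07708 was 0.957 FPKM in OX and 6.40 FPKM in wild type, 6.68-fold lower, and AT2G07709, a transcribed pseudogene, stood at 2.47 FPKM in OX and 9.44 FPKM in wild type, 3.82-fold lower. They share 1 locus (chromosome 2, 3386851 to 3394516), in the part of chromosome 2 that carries a copy of mitochondrial DNA, and how reads were divided between the copies is uncertain. AT1G14780, a MAC/Perforin domain protein gene, stood at 0.949 FPKM in OX and 2.49 FPKM in wild type, 2.62-fold lower. AT2G27080, a gene of the late embryogenesis abundant glycoprotein family, was 7.64 FPKM in OX and 16.01 FPKM in wild type, 2.096-fold lower. The genes themselves were 1310, 6170, 3344 and 3572 bases long, with 1, 5, 7 and 1 exons in the order named.

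Both comparisons listed 10 members, which is 11.1% of the 90 in OX and 71.4% of the 14 in the RNAi sheets. Over all listed nuclear entries these shares were 26.5% and 47.8%. The comparisons share the wild type libraries, so their values are given side by side. Where a member was higher in the RNAi first column, the printed label there is RNAi, with wild type over the other column. XI-J stood at 1.25 FPKM in OX, with 0.484 FPKM in the RNAi first column, against 0.253 FPKM in wild type of the OX sheet and 0.241 FPKM in the RNAi second column. NUDT22 stood at 2.19 FPKM in OX, with 1.23 FPKM in the RNAi first column, against 0.582 and 0.546 FPKM in those same columns. AT5G02940 stood at 31.95 FPKM in OX, with 19.7 FPKM in the RNAi first column, against 9.44 and 8.98 FPKM. In each case the fold of the first over the second column was larger in the OX sheet than in the RNAi sheet.

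AML3, a Mei2-like gene annotated as a transcribed pseudogene in TAIR10.1, stood at 14.6 FPKM in OX, with 7.97 FPKM in the RNAi first column, against 4.16 and 3.96 FPKM. AT2G32240 stood at 10.5 FPKM in OX, with 6.61 FPKM in the RNAi first column, against 3.31 and 3.16 FPKM. AT5G53010 stood at 2.71 FPKM in OX, with 1.78 FPKM in the RNAi first column, against 0.917 and 0.863 FPKM. GCN2 stood at 5.33 FPKM in OX, with 3.90 FPKM in the RNAi first column, against 2.03 and 1.91 FPKM, and the antisense RNA AT2G31902 stood at 0.963 FPKM in OX, with 0.559 FPKM in the RNAi first column, against 0.207 and 0.196 FPKM. These 8 were higher in both comparisons. AT2G07708 and AT2G07709 were lower in both, at 0.957 FPKM in OX and 2.503 FPKM in the RNAi first column (labelled wild type), against 6.40 and 6.05 FPKM (the second column labelled RNAi), for AT2G07708. The fold was larger in OX for all 10, with a median of 3.64 in OX and 2.09 in the RNAi sheets. For how many of the other genes in both comparisons the fold was larger in OX is not given here.

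**Figure D5:**
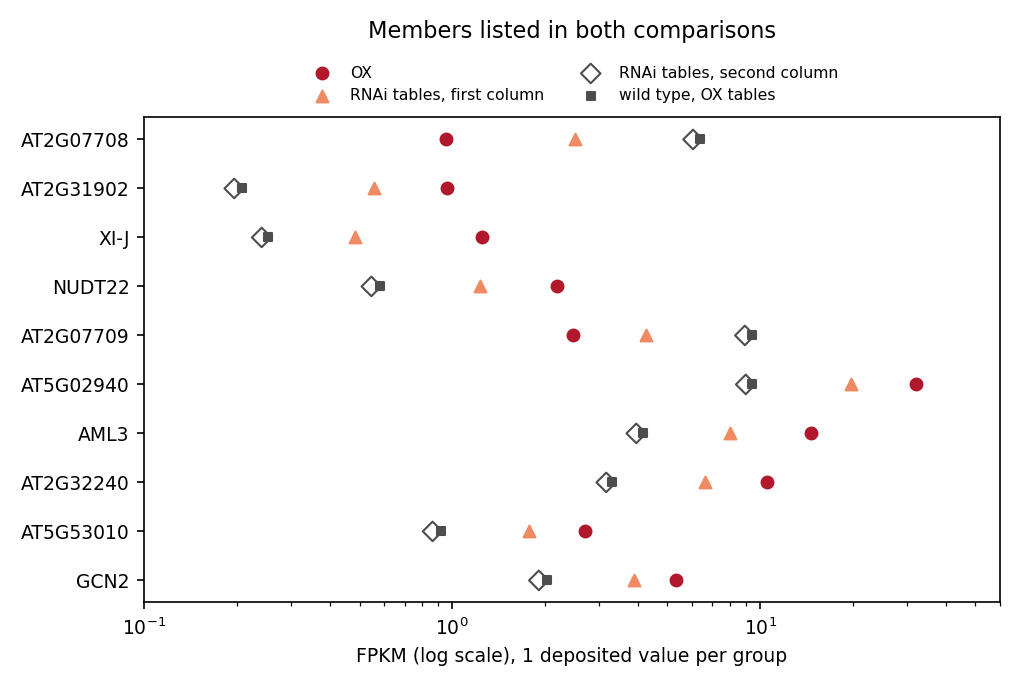
FPKM on a log axis for the 10 members listed in both comparisons: OX (circles), the first column of the RNAi sheets (triangles), their second column (diamonds) and wild type of the OX sheets (squares). The first column of the RNAi sheets lies between OX and wild type for all 10 genes, and the diamonds and squares nearly coincide, with a log2 distance between 0.07 and 0.09.

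The remaining 4 members were listed in the RNAi sheets alone. BCAT2 and IVD, which act in breakdown of branched-chain amino acids, were the most abundant members of all. BCAT2 was 167 FPKM in the first column (labelled RNAi) and 49.9 FPKM in the second (labelled wild type), 3.35-fold higher, and IVD was 116 FPKM in the first column and 49.7 FPKM in the second, 2.33-fold higher. BHLH130, a transcription factor gene that shares its locus with AT2G42270, was 19.4 FPKM in the first column and 9.66 FPKM in the second, and MCM8 is described above. These 4 genes are themselves between 2385 and 4999 bases long, so that long loci rather than long genes brought them in.

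The list of leaf, root and stem markers gave 9 of 14 genes in the tables. In OX 8 were listed, all lower (3 of 5 leaf and 5 of 6 root markers), beside 60.8% higher of all listed nuclear entries. In the RNAi sheets 6 were listed, all lower in the first column, beside 36.4% higher of all listed nuclear entries. For those 6 the printed label of the first column is wild type, with RNAi over the second. The 3 stem and vascular markers were not listed. The markers were not matched for locus span, and of entries under 1000 bases 11.2% were higher in OX. The part of the markers in the direction of the long genes was not tested. In bulk RNA, fewer cells of a type and less RNA per cell cannot be told apart.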

How the data were processed

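The submitters' processing notes name Cuffdiff, Cufflinks 2.2.1, TopHat2 2.1.1 and the TAIR10 build, without their order of use. The deposited lists have Cuffdiff column names, per the file headers, and each holds 1 FPKM value per group, a log2 ratio, a p-value and a q-value per gene, as deposited by the authors. FPKM is read from those column names. Values per library were not used here, so no test between groups, interval or SD could be computed and depth is unknown. Folds are ratios of the 2 deposited FPKM values without a pseudocount. Loci are the deposited TAIR10 coordinates, with 1 added to the start, which was read as counted from 0. Names, products, exon numbers and lengths came from RefSeq's TAIR10.1 annotation, matched by locus identifier, with no coordinates taken from it. Members were put in 14 classes by ordered keywords in product names and symbols, with locus identifiers where the product names only a fold, and 21 families were counted, 19 planned and 2 (SMC proteins, dicer-like proteins) added after values were seen. The members and lists were chosen with earlier results of these data known. Named genes were the longest, those of largest fold in each class and list, the most abundant, all lower members and all members in both comparisons; others, such as SMC and chromatin genes, were named after their values were seen. Alternatives were other span, FPKM, fold and q-value limits, a pseudocount of 1, the gene's own length, and other readings of the RNAi labels. The selection of members was tested on simulated data. Python 3.11.15, pandas 2.3.3, NumPy 2.4.6, SciPy 1.17.1 and Matplotlib 3.10.9 were used.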

Additional observations from a re-analysis of the deposited data

How the results depend on the processing

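Of 76 values under alternative settings, 45 stayed close to the reported value (counts within 1.5 times, shares and medians within a 95% binomial interval over genes) and 31 moved. With a span of at least 5000 bases, OX had 229 higher and 11 lower members and the RNAi sheets 35 and 7, with 28 in both comparisons. With at least 10000 bases, OX had 18 higher and 0 lower (100% higher, median log2 ratio 1.13), the RNAi sheets 1 higher and 0 lower (100%), and both comparisons shared 1. With a log2 ratio of at least 1.5 in size, OX had 24 higher and 2 lower (median 1.68), the RNAi sheets 2 higher and 0 lower (100%, median 1.63), and both shared 1. These counts change because the limit itself keeps more or fewer genes. On the log2(FPKM + 1) scale the medians were 0.874 in OX and 0.664 in the RNAi sheets, against 1.22 and 1.05 without the pseudocount. Among members whose own annotated length is at least 7000 bases, a choice made after seeing the data, OX had 64 higher and 0 lower (100%). The RNAi sheets had 5 and 0 of these members (100%), with 5 in both. Over all listed nuclear entries with annotated lengths between 7000 and 10000 bases, 60 of 61 were higher in OX. In the RNAi first column 3 of 4 were higher. At 10000 or more, 16 of 16 were higher in OX and 2 of 2 in the RNAi first column. Read by the printed column labels, 100% of the RNAi members were higher in RNAi, and by the sheet titles 14.3%, both chosen after seeing the data. The FPKM and q-value limits and the added entries moved no value. No paired analysis was possible because the columns hold 1 value per group and carry no replicate number, and no replicate could be left out for the same reason. Depth limits could not be given.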

Other observations

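Families were also counted at any length, beside a background of 60.8% higher among all listed entries and 87.3% or more at spans from 3000 bases. All families were matched by keywords in symbols and products. Counts can thus include genes only named for a family, or miss some of its genes. In OX, of 15 ABC transporters of the C class 3 were higher and 0 lower, of 43 of the G class 1 and 0, of 38 Mediator entries 3 and 0, of 26 nucleoporins 1 and 0, of 30 DNA polymerase entries 5 and 1, and of 91 TIR-NBS-LRR proteins 2 and 0. In the RNAi first column 0 of the G class were higher and 1 lower, and 3 Mediator entries were higher and 1 lower. Where an entry was lower, the printed label of the first column is wild type, with RNAi over the second. The share of all reference genes that were listed is not given here. GLE1, which acts in mRNA export at the nuclear pore, was 5.17 FPKM in OX and 2.26 FPKM in wild type. KICP-02, a kinesin gene of 5627 bases, was 8.82 FPKM in OX and 2.69 FPKM in wild type, 3.28-fold higher. No gene was listed in either direction for the ARF-GEF proteins, the HECT ubiquitin ligases, ABC transporters of the B class, P4 ATPases, large RNA polymerase subunits, mismatch repair proteins, BEACH domain proteins or glutamate synthases. Because only genes past the authors' limits are in the tables, this does not show that they did not differ.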
